A study of Homo sapiens with 6 samples.

Results

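The ERK pathway carries signals from growth factor receptors through RAS, RAF and MEK to the kinase ERK, and active ERK induces genes whose products switch the pathway off again. These feedback inhibitors include dual-specificity phosphatases (DUSPs), which remove phosphate from MAP kinases, and the Sprouty and SPRED proteins, which act further upstream at RAS and RAF. Their mRNA levels are often read as a record of recent ERK signaling, and many cholangiocarcinomas carry changes in receptors or RAS proteins of this pathway. The 10 genes followed here, such inhibitors and EGR1, were chosen by symbol, and all were among the 19470 genes of the count table and the 13066 genes tested. They are the phosphatase genes DUSP1, DUSP4, DUSP5, DUSP6 and DUSP10, the Sprouty genes SPRY2 and SPRY4, SPRED1 and SPRED2, and EGR1, an immediate early transcription factor induced by ERK that serves as a readout of the pathway.

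RNA was sequenced from HCCC9810, an established human cholangiocarcinoma (CCA) cell line labelled wild type, after 24 h with 20 μM isolinderalactone (ILL), a plant sesquiterpenoid lactone, or with vehicle (DMSO), to find the genes that ILL altered. Each group held 3 libraries of the same line, and as nothing in the labels says that they came from separate cultures, p-values measure the spread between these samples, which may be technical. Total counts lay between 34282764 and 37758569 per library, and replicate libraries were not duplicates of each other, since their counts differed beyond sampling error (chi-square per degree of freedom 5.15 to 11.8). The biliary epithelial marker genes KRT7, KRT19 and EPCAM had at least 8585 counts in every library. Summed immune markers were 37.5 to 42.4 CPM (TMM-normalized counts scaled to library size) in control and 109 to 114 CPM with ILL, nearly all of it from CD68, a lysosomal protein of macrophages and other cells, while the defining immune genes PTPRC and CD3E had at most 9 and 3 counts in any library.

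After ILL treatment, 6 of the 10 genes rose and none passed the test in the other direction. DUSP5, DUSP1 and EGR1 rose more than 2-fold, DUSP10, DUSP4 and SPRED2 rose by a smaller fold, and DUSP6, SPRY2, SPRY4 and SPRED1 did not pass the test. Differentially expressed genes (DEGs) had an adjusted p-value below 0.05, from edgeR's quasi-likelihood test over all tested genes, together with a fold above 2 or below 0.5. By this rule 3 of the 10 genes were DEGs with higher expression, where 12.5% of all tested genes were, and 0 were DEGs with lower expression, where 11.4% of all tested genes were. By the adjusted p-value alone, 6 of 10 were higher, beside 36.2% of all tested genes, and 0 of 10 were lower, beside 36.9%. DESeq2 also gave 6 higher and 0 lower, and at an unadjusted p under 0.05 the edgeR count was 6 higher and 1 lower, the latter being DUSP6. Over all tested genes at least 36.2% were higher and 36.9% lower at that unadjusted threshold, since these passed the adjusted p-value. The median log2 fold change was 0.594 over the 10 genes and -0.00117 over all genes tested. In 8 of the 10 genes the libraries of the groups did not overlap, 7 higher and 1 lower with ILL, which is near the 75.4% found over all tested genes.

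**Figure D1:**
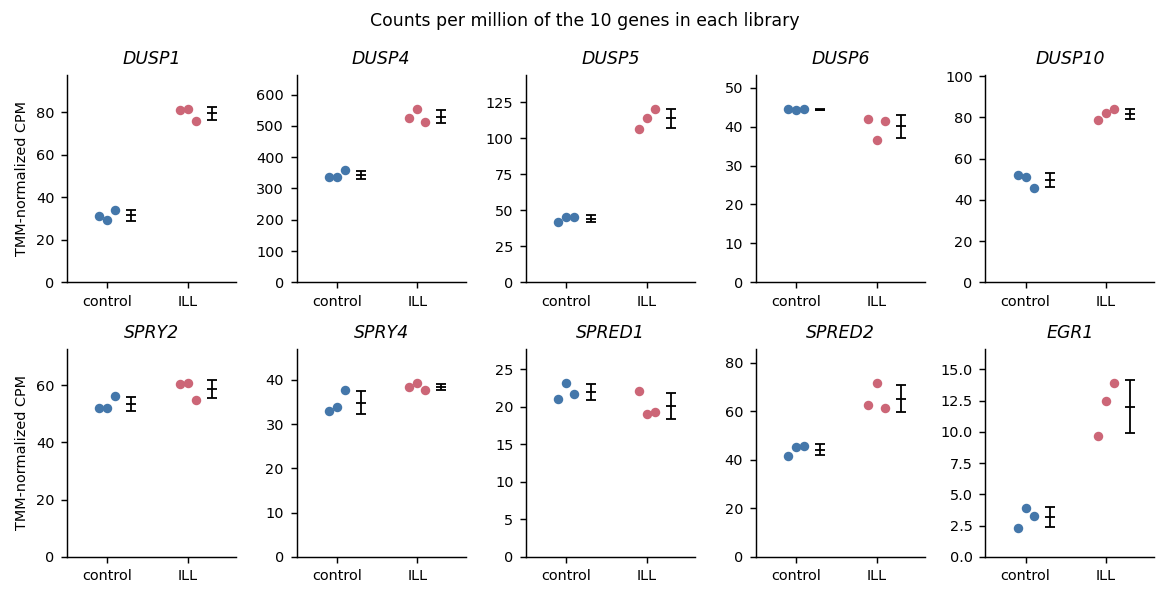
CPM after TMM normalization (vertical axis, linear, from 0, own scale per gene) of each of the 10 genes in the 3 control (blue) and 3 ILL (red) libraries, with bars for the mean and SD. DUSP1, DUSP5 and EGR1 show wide gaps between the groups, whereas the points of SPRY2 and SPRED1 overlap.

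EGR1 encodes a zinc finger transcription factor that growth factors induce within minutes, and it lies on chromosome 5 of GRCh38 from 138465490 to 138469315. It had 90, 138 and 115 counts in control libraries 1 to 3 and 339, 428 and 485 counts in ILL libraries 1 to 3. Every ILL library was well above every control library, although EGR1 had the lowest counts and the widest relative spread of the 10 genes. Its level was 3.17 ± 0.808 CPM (SD, n = 3) in control and 12.0 ± 2.13 CPM (SD, n = 3) with ILL. The log2 fold change was 1.93 (standard error 0.179, 95% confidence interval 1.56 to 2.30, edgeR adjusted p = 7.1e-10), or 3.80-fold. With limma on log2(FPKM + 1), which understates changes of low genes, EGR1 had 1.22. The edgeR value was the largest of the 10 changes and stood at percentile 95.9 of the log2 fold changes of all tested genes.

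DUSP1 encodes an inducible nuclear phosphatase of ERK, JNK and p38, and spans 172768090 to 172771195 on chromosome 5. Control libraries 1 to 3 held 1205, 1032 and 1204 counts, and ILL libraries 1 to 3 held 2842, 2802 and 2651 counts. The groups were far apart and each was tight, at 31.5 ± 2.37 CPM (SD, n = 3) against 79.5 ± 3.17 CPM (SD, n = 3). DUSP1 rose 2.52-fold, a log2 fold change of 1.34 (standard error 0.0684, interval 1.19 to 1.48, edgeR adjusted p = 7.3e-15).

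DUSP5, a nuclear phosphatase selective for ERK, lies on chromosome 10 from 110497838 to 110511544. It was counted 1617, 1602 and 1614 times in control libraries 1 to 3 and 3736, 3939 and 4205 times in ILL libraries 1 to 3. Again the groups did not overlap, with 44.3 ± 2.29 CPM (SD, n = 3) in control and 113.8 ± 6.79 CPM (SD, n = 3) in ILL. The log2 fold change of 1.36 (standard error 0.0634, interval 1.23 to 1.49, edgeR adjusted p = 1.1e-15) equals 2.57-fold, and the intervals of DUSP5 and DUSP1 overlapped almost entirely.

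The sequences before the start sites of EGR1 and DUSP1, which were both DEGs, and of SPRY2, which did not pass the test, are shown for comparison. They are the 250 bases upstream of the RefSeq start on GRCh38.p14, written 5′ to 3′ on the strand of the gene, and capitals mark matches to the motifs searched. The window of EGR1 is chr5:138465229-138465478 on the plus strand, that of DUSP1 is chr5:172771196-172771445 on the minus strand, and that of SPRY2 is chr13:80341127-80341376 on the minus strand, at 1 of its 3 RefSeq starts.
EGR1: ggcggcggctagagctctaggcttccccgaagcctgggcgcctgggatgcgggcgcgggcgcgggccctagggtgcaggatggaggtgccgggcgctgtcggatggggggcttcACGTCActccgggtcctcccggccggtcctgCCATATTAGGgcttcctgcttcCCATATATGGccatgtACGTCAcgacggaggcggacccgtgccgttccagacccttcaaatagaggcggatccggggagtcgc
DUSP1: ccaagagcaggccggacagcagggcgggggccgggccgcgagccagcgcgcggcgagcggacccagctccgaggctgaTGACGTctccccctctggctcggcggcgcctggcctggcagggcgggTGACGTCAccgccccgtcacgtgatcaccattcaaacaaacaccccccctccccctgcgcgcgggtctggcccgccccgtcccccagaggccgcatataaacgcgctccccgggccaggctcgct
SPRY2: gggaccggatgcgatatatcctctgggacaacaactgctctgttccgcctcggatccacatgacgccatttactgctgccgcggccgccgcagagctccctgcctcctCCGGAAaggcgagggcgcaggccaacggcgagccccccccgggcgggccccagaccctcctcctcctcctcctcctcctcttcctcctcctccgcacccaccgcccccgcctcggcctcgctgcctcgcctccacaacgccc

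The motifs were chosen after these sequences had been seen. They were searched on both strands, except the NF-kB site, which was searched on the strand of the gene only. In the EGR1 window, the core of the cAMP response element (TGACGT) begins at positions -136 and -67 relative to the start site, and the CArG box, which serum response factor binds, begins at -105 and -83. The DUSP1 window holds 3 matches to the cAMP response element core, beginning at -172, -125 and -123, and the last pair overlaps on opposite strands. SPRY2 has a single ETS core (CCGGAA) at -142 from this start. Over all 35116 RefSeq windows of the same length, 7.1% hold the cAMP response element core, 1.16% hold a CArG box and 14.5% hold the ETS core. Windows were matched for 8 of the 10 genes, 12 windows in all. Besides the matches above, the search gave only 1 site for C/EBP and ATF factors (TGATGNAA, in 3.14% of all windows), in a window of SPRED2. It gave no match to the AP-1 site (TGANTCA, in 6.57%), and none to the NF-kB site on the strand of the gene (in 7.46%). These matches describe letters in the windows, and binding was not measured here.

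DUSP4, DUSP10 and SPRED2 rose by less than 2-fold. DUSP4, a nuclear phosphatase that acts on ERK and JNK, had by far the most reads of the 10 genes, with 13088, 11795 and 12660 counts in control libraries 1 to 3 and 18328, 19040 and 17922 counts in ILL libraries 1 to 3. It rose without overlap between groups, with means of 343.6 ± 12.5 CPM (SD, n = 3) in control and 529.7 ± 21.0 CPM (SD, n = 3) in ILL. The log2 fold change was 0.62 (standard error 0.05, interval 0.521 to 0.728, edgeR adjusted p = 4.4e-11).

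DUSP10, which prefers the stress kinases JNK and p38 to ERK, lies on chromosome 1 from 221701424 to 221742176. There were 2031, 1799 and 1625 counts in control libraries 1 to 3 and 2762, 2829 and 2938 counts in ILL libraries 1 to 3. All ILL values exceeded all control values, at 81.7 ± 2.60 CPM (SD, n = 3) against 49.8 ± 3.39 CPM (SD, n = 3). It rose by 0.71 on the log2 scale (standard error 0.064, interval 0.581 to 0.845, edgeR adjusted p = 3.6e-10), which is 1.64-fold.

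SPRED2, on chromosome 2 from 65310851 to 65432637, encodes a membrane protein that recruits the RAS inhibitor neurofibromin and blocks activation of RAF. Control libraries 1 to 3 had 1608, 1584 and 1615 counts and ILL libraries 1 to 3 had 2184, 2457 and 2147 counts. All ILL libraries were above the controls, at 65.1 ± 5.50 CPM (SD, n = 3) against 44.1 ± 2.31 CPM (SD, n = 3), a log2 fold change of 0.56 (standard error 0.07, interval 0.418 to 0.707, edgeR adjusted p = 1.1e-07).

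**Figure D2:**
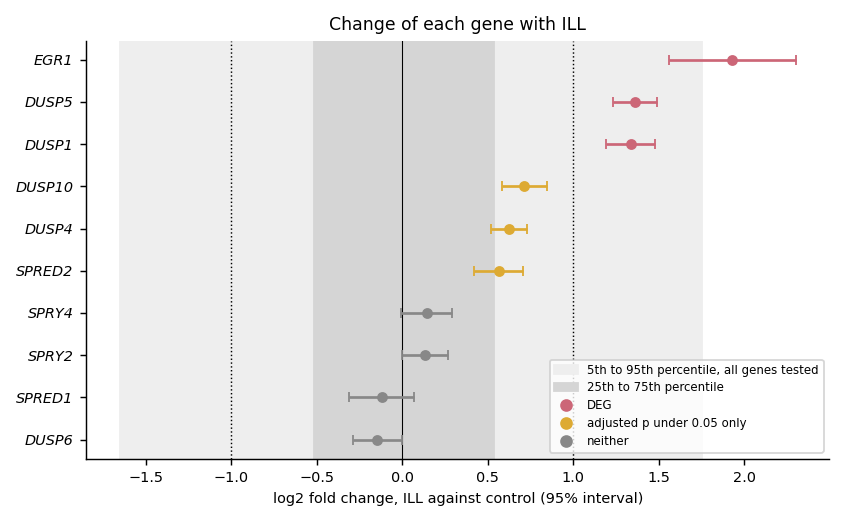
Log2 fold change of ILL against control for the 10 genes (horizontal axis, points with 95% confidence intervals from edgeR), with dotted lines at the fold cutoffs. Only DUSP1, DUSP5 and EGR1 lie beyond 2-fold, and the intervals of SPRY2, SPRY4 and SPRED1 include no change.

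DUSP6, the cytoplasmic phosphatase that is selective for ERK and among the most used ERK readouts, was the only one of the 5 phosphatases that did not pass the test. It lies on chromosome 12 from 89347232 to 89353271 and had 1726, 1553 and 1569 counts in control libraries 1 to 3 and 1472, 1258 and 1452 counts in ILL libraries 1 to 3. Control libraries were almost identical at 44.3 ± 0.128 CPM (SD, n = 3), and all 3 ILL libraries lay below them at 40.0 ± 3.03 CPM (SD, n = 3). The log2 fold change of -0.147 (standard error 0.0698, edgeR adjusted p = 0.062) missed the threshold, with an unadjusted interval of -0.291 to -0.00275. Without ILL replicate 1 it passed, with an adjusted p of 0.0422, with scaling by library size alone it passed at -0.216 with an adjusted p of 0.00861, and it also passed with limma on FPKM. Over all alternatives the adjusted p ran from 0.00861 to 0.29. An exon of DUSP6 overlaps the antisense gene AC024909.2 in the GENCODE annotation, and the strand setting of the counting is not given in the sources used here, so reads of this antisense gene cannot be told apart from those of DUSP6.

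Neither Sprouty gene passed the test. SPRY2, an inhibitor of receptor signaling to RAS on chromosome 13 from 80335976 to 80340951, had 2020, 1829 and 1983 counts in control libraries 1 to 3 and 2112, 2084 and 1917 counts in ILL libraries 1 to 3. In CPM the groups overlapped, at 53.4 ± 2.33 (SD, n = 3) in control and 58.6 ± 3.24 (SD, n = 3) with ILL. The log2 fold change was 0.13 (standard error 0.0651, interval -0.000786 to 0.268, edgeR adjusted p = 0.069), and it passed without control replicate 3 (adjusted p = 0.0381) or without ILL replicate 3 (adjusted p = 0.0287), against 0.0287 to 0.377 over all alternatives.

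SPRY4, which also restrains the path from receptors to RAF, lies on chromosome 5 from 142310427 to 142326455. It had 1282, 1186 and 1334 counts in control libraries 1 to 3 and 1343, 1348 and 1322 counts in ILL libraries 1 to 3. The ILL libraries lay just above the controls after normalization, with 38.4 ± 0.683 CPM (SD, n = 3) against 34.8 ± 2.53 CPM (SD, n = 3). Its log2 fold change of 0.14 had an interval of -0.00618 to 0.292 (standard error 0.0721, edgeR adjusted p = 0.079), and without control replicate 3 the adjusted p was 0.0221, the lowest of a range up to 0.41.

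SPRED1, the relative of SPRED2 on chromosome 15 from 38252326 to 38357249, showed no change that passed the test. Control libraries 1 to 3 held 815, 812 and 767 counts and ILL libraries 1 to 3 held 775, 656 and 674 counts, which overlapped after normalization. The means were 21.9 ± 1.08 CPM (SD, n = 3) and 20.2 ± 1.72 CPM (SD, n = 3), with a log2 fold change of -0.12 (standard error 0.0908, interval -0.309 to 0.0666, edgeR adjusted p = 0.23). The intervals of DUSP6, SPRY2, SPRY4 and SPRED1 all lay well inside the 2-fold cutoff in both directions.

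Levels of different genes were compared on the FPKM scale, which divides by gene length. In control cells DUSP4 stood highest at 48.4 ± 1.55 FPKM (SD, n = 3), followed by DUSP5 at 18.3 ± 0.885, DUSP1 at 16.0 ± 1.15 and SPRY2 at 15.8 ± 0.619 FPKM. DUSP6 followed at 12.5 ± 0.0740 FPKM, and SPRED2, DUSP10, SPRY4 and SPRED1 had levels of 7.29 ± 0.354, 6.13 ± 0.444, 4.98 ± 0.339 and 2.53 ± 0.123 FPKM. EGR1 was lowest at 1.03 ± 0.262 FPKM (SD, n = 3). Of neighbours in this order, only the libraries of DUSP1 and SPRY2 overlapped.

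With ILL, DUSP4 was again highest at 71.1 ± 2.53 FPKM (SD, n = 3), and DUSP5 and DUSP1 followed at 44.8 ± 2.54 and 38.5 ± 1.55 FPKM. The gap to SPRY2, at 16.5 ± 0.917 FPKM, opened, since no ILL library of DUSP1 was below 36.76 FPKM and no ILL library of SPRY2 was above 17.1 FPKM. DUSP6 was at 10.8 ± 0.874 FPKM, with libraries that overlapped those of SPRED2, and those of SPRED2 overlapped those of DUSP10 at 9.57 ± 0.272 FPKM. SPRY4 was at 5.24 ± 0.0786 FPKM, and EGR1 at 3.73 ± 0.650 FPKM exchanged places with SPRED1 at 2.21 ± 0.202 FPKM, the only change in the order of the means.

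**Figure D3:**
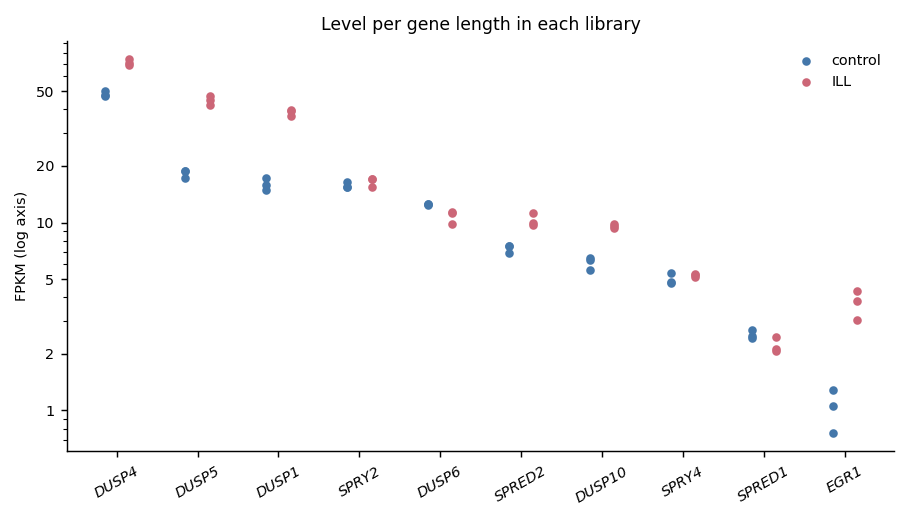
Deposited FPKM (logarithmic axis) of the 10 genes in each of the 3 control and 3 ILL libraries, in the order of the control means. DUSP4 is highest in both groups, and DUSP5 and DUSP1 move away from SPRY2 and DUSP6 with ILL.

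The FPKM of the 5 phosphatases summed to 101.3 ± 2.52 (SD, n = 3) in control and 174.8 ± 2.09 (SD, n = 3) with ILL, as a description without a test. DUSP4 made up 47.7% ± 0.382 of this sum in control and 40.7% ± 1.06 with ILL. The nuclear phosphatases DUSP5 and DUSP1 held larger shares with ILL, at 25.7% ± 1.45 against 18.1% ± 0.786 and at 22.0% ± 0.865 against 15.8% ± 0.786. The share of cytoplasmic DUSP6 was 12.4% ± 0.354 in control and 6.17% ± 0.57 with ILL, and that of DUSP10 was 6.05% ± 0.579 and 5.48% ± 0.16.

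Related genes were compared within each library by the log2 ratio of their counts, which does not depend on library scaling. There were 5 such pairs, each with a two-sided exact permutation test of 3 libraries against 3, for which the smallest possible p is 0.1. The ratio of DUSP5 to DUSP6, the nuclear and the cytoplasmic ERK phosphatase, was 0.998 in control and 2.84 with ILL, a difference of 1.51 on the log2 scale. DUSP4 to DUSP6 had a ratio of 7.75 in control and 13.3 with ILL, a log2 difference of 0.77. For SPRED1 to SPRED2 the ratio was 0.498 in control and 0.310 with ILL, a log2 difference of -0.68, and for DUSP1 to DUSP10 it was 0.632 and 0.972, a log2 difference of 0.62. In these 4 pairs the groups did not overlap, and each gave an exact p = 0.1 (adjusted p = 0.125 over the 5 pairs, by Benjamini-Hochberg), which this design cannot lower. SPRY4 to SPRY2 had a ratio of 0.652 in control and 0.657 with ILL, a log2 difference of 0.012 with overlapping groups (exact permutation p = 0.8, adjusted p = 0.8).

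**Figure D4:**
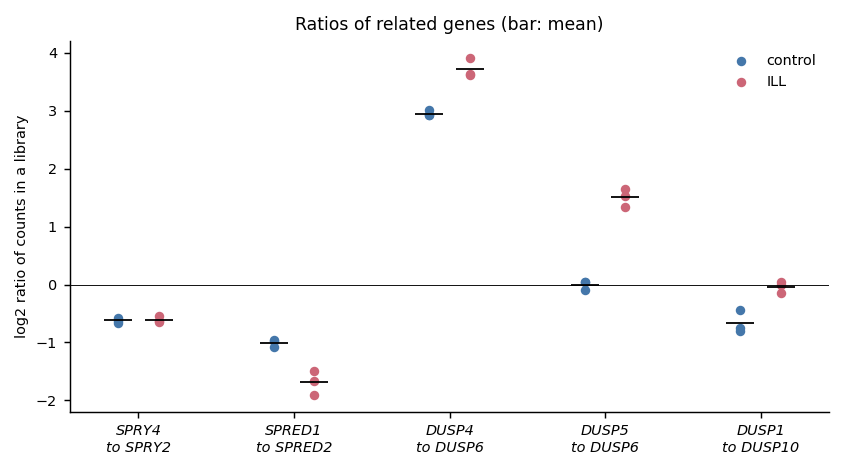
Log2 ratio of counts within each library for 5 pairs of related genes, with points for the 3 control and 3 ILL libraries and bars for the mean. DUSP5 to DUSP6 shows the widest gap between the groups, and SPRY4 to SPRY2 the smallest.

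Most genes that encode the pathway itself were higher with ILL by less than 2-fold. Of 16 genes from the adaptors to ERK, 11 were higher and 1 was lower by adjusted p-value, and 4 did not pass. Over all tested genes these shares were 36.2% higher and 36.9% lower. In the cascade 0 genes were DEGs by edgeR or by DESeq2, where 12.5% of all tested genes were higher and 11.4% lower DEGs. There were 13 at an unadjusted p under 0.05, which at least 36.2% of all tested genes passed as higher and 36.9% as lower. The median log2 fold change was 0.209. MAPK3, which encodes the kinase ERK1, rose by 0.52 on the log2 scale (edgeR adjusted p = 6.8e-08). Of the MEK genes, MAP2K1 had a log2 fold change of -0.065 (edgeR adjusted p = 0.36), and MAP2K2 had 0.13 with an edgeR adjusted p of 0.036 that ranged from 0.0138 to 0.356 over the alternatives.

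Of 16 other negative regulators of receptors, RAS and RAF, 15 were tested and SPRY3 was not. Among the 15, 7 were higher and 3 lower by adjusted p-value, beside 36.2% and 36.9% of all tested genes. There were 4 DEGs higher and 2 DEGs lower, beside 12.5% and 11.4%, and the median log2 fold change was 0.252. ERRFI1, an inhibitor of the epidermal growth factor receptor, rose most, 8.73-fold, with 60.8 ± 1.45 CPM (SD, n = 3) in control and 531 ± 13.2 CPM (SD, n = 3) in ILL (log2 fold change 3.13, standard error 0.054, edgeR adjusted p = 1.0e-23). CBLB, a ubiquitin ligase that acts on activated receptors, rose by 1.91 on the log2 scale (edgeR adjusted p = 7.1e-15), and RASAL1, which switches off RAS, rose by 1.29 (edgeR adjusted p = 1.5e-07). With limma on log2(FPKM + 1) the value of CBLB was 1.23, and that of RASAL1 was 0.605 and no longer a DEG.

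SPRY1, a relative of SPRY2 and SPRY4, fell. It had 190, 187 and 139 counts in control libraries 1 to 3 and 25, 49 and 53 counts in ILL libraries 1 to 3, all below the controls. The log2 fold change of SPRY1 was -1.95 (standard error 0.28, edgeR adjusted p = 1.0e-06), and it was -0.906, short of the DEG cutoff, with limma on log2(FPKM + 1). RASAL2, another gene for a protein that switches off RAS, decreased by 1.07 on the log2 scale (edgeR adjusted p = 4.3e-14), and its value in that limma fit, -0.928, was likewise short of the cutoff.

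Of the 5 other MAP kinase phosphatases 4 were tested, and DUSP2 was not. DUSP8 and DUSP16, which act mainly on JNK and p38, rose from 6.51 to 27.5 CPM (log2 fold change 2.08, edgeR adjusted p = 2.9e-14) and from 17.3 to 55.0 CPM (log2 fold change 1.67, edgeR adjusted p = 6.1e-16). DUSP8 had 1.38 with limma on log2(FPKM + 1). DUSP8 and DUSP16 were the only DEGs of this list, where 12.5% of all tested genes were DEGs with higher and 11.4% with lower expression. Of the 4 genes, 2 were higher and 1 lower by adjusted p-value, beside 36.2% and 36.9% of all tested genes, and 1 did not pass. The median log2 fold change, over only these 4 genes, was 0.754.

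Other immediate early genes and later targets of ERK went in both directions. Whether ERK drove any of these changes was not tested. Of 20 other immediate early genes, 18 were tested, of which 12 were higher and 4 lower by adjusted p-value, beside 36.2% and 36.9% of all tested genes. There were 6 DEGs with higher and 1 with lower expression, beside 12.5% and 11.4%, and the median log2 fold change was 0.712. ATF3, a stress-induced transcription factor, rose from 2.46 to 26.4 CPM (log2 fold change 3.42, edgeR adjusted p = 3.2e-17), and KLF4, a factor of epithelial differentiation, rose by 2.18 on the log2 scale (edgeR adjusted p = 5.6e-18). EGR4, a relative of EGR1, had 20, 2 and 14 counts in control libraries 1 to 3 and 84, 85 and 81 counts in ILL libraries 1 to 3, a log2 fold change of 2.86 (standard error 0.47, edgeR adjusted p = 6.3e-06). It was 2.38 without control replicate 2, whose count was 2, and 3.38 without control replicate 1. With limma on log2(FPKM + 1) and no filter EGR4 had 0.842, below the DEG cutoff. FOSL1, a subunit of AP-1 whose protein ERK stabilizes, fell by 1.16 on the log2 scale, from 220 to 98.1 CPM (edgeR adjusted p = 5.1e-16).

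Among 8 genes that respond later to ERK, 3 were higher and 5 lower by adjusted p-value, beside 36.2% and 36.9% of all tested genes. The median log2 fold change was -0.528, and 1 gene was a DEG with higher expression, beside 12.5% of all tested genes. That DEG was PHLDA1, which rose from 169 to 346 CPM (log2 fold change 1.04, edgeR adjusted p = 3.3e-15). Its DEG call was just past the cutoff and was lost with library size only (0.968) and with limma on FPKM plus 1 (0.945) or plus 0.1 (0.966). CCND1, which encodes cyclin D1, fell by 0.55 on the log2 scale, from 488 to 332 CPM (edgeR adjusted p = 3.1e-10). The ETS factors ETV4 and ETV5, which are commonly read together as ERK targets, moved in opposite directions, since ETV4 fell by 0.57 (edgeR adjusted p = 4.8e-07) and ETV5 rose by 0.57 (edgeR adjusted p = 3.0e-07) on the log2 scale.

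**Figure D5:**
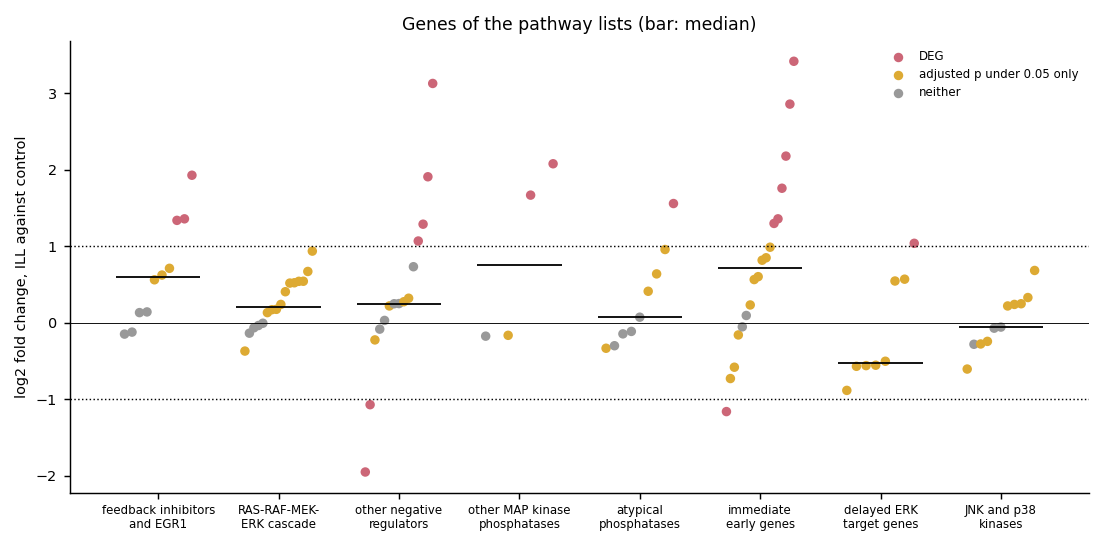
Log2 fold change of ILL against control (edgeR) for each of the 10 genes (the feedback inhibitors and EGR1) and each tested gene of the other pathway lists. These lists include JNK and p38 kinases and atypical phosphatases. A bar marks the median of each list and dotted lines the fold cutoffs, with red for DEGs, yellow for genes that passed the adjusted p-value only and grey for the rest. No cascade gene lies beyond the fold cutoff, whereas the negative regulators and immediate early genes spread from below -1 to above 3.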

How the data were processed

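The authors sequenced mRNA from TRIzol-extracted total RNA of HCCC9810 cells and deposited, per library, raw counts per gene symbol, not normalized, and FPKM values, which are scaled for gene length and library total. The labels name GRCh38 and DESeq2, while the aligner, counting program, strand setting and annotation are not given in the sources used here. The groups and replicate numbers came from the sample labels. The 10 genes and the pathway lists were chosen with earlier results of these data known.

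Genes were filtered with filterByExpr, which left 13066 of 19470, scaled by TMM and compared by the quasi-likelihood F test of edgeR (edgeR 4.0.16, R 4.3.3), with p-values adjusted by Benjamini-Hochberg over all of them. The DEG cutoffs were those of the study. Standard errors were the log2 fold change divided by the square root of F, and 95% intervals, unadjusted, used the t quantile of the fit. The biological coefficient of variation was 0.0717 at 34282764 to 37758569 counts per library, so that the spread between libraries limits the precision of most genes. The script was tested on simulated data. Alternatives were DESeq2's size factors, library size only, 2 other count filters, DESeq2's Wald test (DESeq2 1.42.0), limma (limma 3.58.1) on log2 of FPKM plus 1 or 0.1, a replicate block, no fold cutoff, and each library left out.

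Named were the 10 genes, up to 3 DEGs from either end of every pathway list, and MAPK3, MAP2K1, MAP2K2, ETV4, ETV5, FOSL1, PHLDA1 and CCND1 whatever their result, and certain genes are not reported here. Gene positions come from GENCODE release 29 on GRCh38 and promoter windows from RefSeq on GRCh38.p14. The sequences of DUSP4 and DUSP5, proteins, and other experiments of the study were not analysed here.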

Additional observations from a re-analysis of the deposited data

How the results depend on the processing

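Of the 10 genes, 7 had the same direction and the same side of the adjusted p-value threshold under all alternatives that gave a value, as did 17 of the 19 other named genes. The fold cutoff is a separate matter, since PHLDA1, SPRY1, RASAL1, RASAL2, DUSP18 and EGR4 lost their DEG call under limma on FPKM plus 1, and PHLDA1 also with library size only and FPKM plus 0.1. The exceptions by adjusted p-value or direction were DUSP6, SPRY2, SPRY4, MAP2K1 and MAP2K2, all with small changes. DUSP6 passed at -0.216 with library size only and at -0.202, -0.217 and -0.202 with limma on FPKM plus 1, plus 0.1 and plus 1 without a filter, and ranged from -0.183 to -0.0856 with 1 library left out. SPRY2 passed at 0.144 with DESeq2's size factors and at 0.146 with a minimum of 10 counts per library, and ranged from 0.109 to 0.180 with 1 library left out, as SPRY4 did from 0.101 to 0.202. With 1 library left out, MAP2K1 lay between -0.106 and 0.00282 and the log2 ratio of SPRY4 to SPRY2 between -0.0232 and 0.0353.

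Without the fold cutoff the DEGs went from 3120 to 9547 (4726 higher, 4821 lower) over all genes, from 3 to 6 among the 10 genes, from 0 to 12 in the cascade, from 6 to 10 among the other negative regulators, from 1 to 5 among the atypical phosphatases, from 7 to 16 among the immediate early genes, from 1 to 8 among the delayed targets and from 0 to 8 among the JNK and p38 kinases. With limma on FPKM plus 1 they were 1591 over all genes (1609 without a filter), 2 among the negative regulators, 0 among the atypical phosphatases and 0 among the delayed targets; the delayed targets were also at 0 with FPKM plus 0.1 and with library size only. EGR1 had 1.22 with limma on FPKM plus 1, against a control level of 1.03 FPKM. Leaving out 1 library gave 3083 to 3165 DEGs over all genes, 3 to 3 among the 10 genes, 1 to 2 among the atypical phosphatases (2 without control replicate 1 or ILL replicate 3) and 1 to 2 among the delayed targets (2 without ILL replicate 1 or 3). The cause of these moves was not tested, other than the cutoff itself.

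Replicate numbers did not pair the libraries, since same-numbered libraries had deviations that correlated at 0.0107, -0.0218 and -0.0179. With the replicate block, 3111 genes were DEGs, and of the 10 genes 3 were DEGs and 6 passed the adjusted p-value. With library size alone, the median over all genes was -0.0702 on the log2 scale. EGR1 had the fewest counts of the 10 genes, 90 to 138 in control libraries, and whether depth limits its precision was not tested.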

Other observations

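Phosphatases outside the MAP kinase phosphatase family, the atypical dual-specificity phosphatases, were also measured, with 9 tested. By adjusted p-value 4 were higher and 1 lower with ILL, beside 36.2% and 36.9% of all tested genes. A further 4 did not pass, and the median log2 fold change was 0.074. The single DEG was DUSP18, where 12.5% of all tested genes were DEGs with higher and 11.4% with lower expression. Its log2 fold change was 1.56 (edgeR adjusted p = 4.3e-08), and it was 0.757 and no longer a DEG with limma on log2(FPKM + 1). Of 11 kinases of the JNK and p38 pathways, which DUSP1, DUSP8, DUSP10 and DUSP16 act on, 5 were higher and 3 lower by adjusted p-value. This stood beside the same shares of all tested genes, and the 11 kinases had a median log2 fold change of -0.0552. None was a DEG by edgeR or DESeq2, where 12.5% of all tested genes were higher and 11.4% lower DEGs by edgeR. There were 8 at an unadjusted p under 0.05, which at least 36.2% of all tested genes passed as higher and 36.9% as lower.

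Further relatives of EGR1, EGR2 and EGR3, had too few counts to pass the filter of the main edgeR fit. With no filter, or with DESeq2's Wald test, all 20 other immediate early genes were tested. In both settings 8 of them were DEGs with higher expression, against 6 in the main fit. Over all genes, DEGs with higher expression were 1759 of 16266 with no filter and 1743 of 15011 with DESeq2's Wald test. EGR2 had 0, 5 and 0 counts in control libraries 1 to 3 and 20, 22 and 5 counts in ILL libraries 1 to 3. EGR3 had 0, 1 and 2 counts in control libraries 1 to 3 and 7, 9 and 12 counts in ILL libraries 1 to 3.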
